A study of Mus musculus with 12 samples.

Results

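Polycomb repressive complex 2 (PRC2) is the enzyme that places the repressive mark H3K27me3, and 7 genes that encode its alternative and accessory parts were followed here in mouse spermatogonia. They are *Ezh1*, *Rbbp7*, *Mtf2*, *Phf1*, *Phf19*, *Jarid2* and *Aebp2*, taken by gene symbol from the 21859 genes of the expression table, and all 7 were found. The core genes *Ezh2*, *Eed*, *Suz12* and *Rbbp4* are not members and serve as partners for comparison. Sorted GFRa1+/KIT- spermatogonia gave 12 Smart-seq2 RNA libraries, 5 from control and 7 from cryptorchid testes. These libraries address whether RNA levels of the 7 genes differ between testes in the scrotum and testes in the abdomen.

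All animals were adult male mice (8 to 10 weeks old) that carried GFRa1-EGFP, a reporter of the GDNF receptor gene *Gfra1*. In the labels, control samples have the genotype WT and cryptorchid samples the genotype Cryptorchid, which here stands for surgery and not for an allele. The left testis was attached to the abdominal wall, the right testis stayed in the scrotum as the control, and cells were taken 10 days after surgery. Testes were digested for 9 min at 32°C in the control and at 37°C in the cryptorchid group, so this temperature cannot be told apart from the condition. RNA from about 200 cells went into each library. Which libraries share a mouse was not stated. The *P*-values therefore measure the spread between libraries and take no account of shared mice.

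PRC2 has a core of a methyltransferase (EZH2 or EZH1), EED, SUZ12 and a WD40 histone-binding protein (RBBP4 or RBBP7). Accessory proteins bind SUZ12 and sort the core into a pair of assemblies. PRC2.1 holds a Polycomb-like protein, which is PHF1, MTF2 or PHF19 and helps to bring the complex to CpG-rich DNA, whereas PRC2.2 holds JARID2 and AEBP2, which recognise ubiquitylated H2A left by PRC1. EZH1 is the weaker methyltransferase and is typical of cells that divide little, while EZH2 follows proliferation. In germline stem cells, H3K27me3 keeps developmental genes silent.

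Levels are given as log2 RPM, the log2 of reads scaled to a common library total. Control libraries held 4511730 to 24345368 reads on genes (median 7603202), and cryptorchid libraries 3306771 to 20027902 (median 4611830). Markers of undifferentiated spermatogonia were found in each library for 8 of 8 genes, and their summed level was 869 to 1370 RPM in control and 1072 to 1757 RPM in cryptorchid. Spermatid markers were also present, with sums of 461 to 2428 RPM in control (median 1042) and 13.5 to 1550 RPM in cryptorchid (median 236). Of these 5 markers, *Prm1* and *Prm2*, which encode sperm protamines, were lower and passed the 2-fold and unadjusted *P*-value limit (limma, log2 differences of -2.40 and -3.73, adjusted *P*=0.359 and 0.134). The sums of each list overlapped between groups. They were 242 to 1553 RPM in control and 57.0 to 1613 in cryptorchid for 5 spermatocyte markers, 135 to 295 and 185 to 348 for 4 markers of differentiating spermatogonia, of which *Stra8* passed the same limit (log2 difference of 1.09, limma adjusted *P*=0.273), and 17.1 to 52.7 and 13.3 to 47.2 for 6 Sertoli markers, of which *Amh* had no reads in 10 libraries. For Leydig cells (5 markers), myoid cells (3) and macrophages (4) the highest sum in any library was 47.8, 15.0 and 27.2 RPM. *Cyp17a1*, *Hsd3b1* and *Cd163* had no reads in 11, 8 and 10 libraries, while *Star*, *Csf1r* and *Cd68* had reads in every library. *Star*, a Leydig marker, had 2.58 to 3.90 log2 RPM in control and 2.35 to 5.51 in cryptorchid. The Sertoli markers *Sox9*, *Wt1*, *Gata4* and *Rhox5* also had reads in every library. In such sorted pools, fewer cells of a type and less RNA per cell cannot be told apart.

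None of the 7 genes passed the limits for a difference between control and cryptorchid spermatogonia. With a 2-fold difference and an unadjusted *P*-value under 0.05 in limma, 0 members were higher and 0 were lower, against 3.56% and 2.36% of the 16932 genes tested, or 5.92% in either direction (603 higher and 399 lower, or 457 and 542 after quantile normalization). At an unadjusted *P*-value under 0.05 without the fold limit there were also 0 members in the unpaired limma fit, against 9.48% of all genes. There were 0 with voom on recovered reads and 0 in the exact rank sum test, which were unpaired too. The fit with the replicate number as a block differed and is given in the last section. The adjusted *P*-values in limma ran from 0.791 (*Aebp2*) to 0.964 (*Ezh1*), and 2 of the 16932 genes tested (0.0118%) were under 0.05. No member separated the groups, as 0.839% of all genes did. All 7 members passed the filter on low values.

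The members lay on both sides of zero, with higher means in cryptorchid for *Ezh1*, *Mtf2*, *Jarid2* and *Aebp2* and lower means for *Rbbp7*, *Phf1* and *Phf19*, although *Ezh1* turned to -0.01 on median centring of the libraries. The median log2 difference of the 7 genes was 0.06, beside 0.10 over all genes tested. The median size of the difference regardless of sign was 0.22 for the members and 0.40 for all genes. These values were not matched for level. *Ezh1*, *Rbbp7*, *Mtf2* and *Jarid2* each lay above 88.8% to 97.3% of the genes tested in level. With the filter raised to a log2 mean RPM of 2, the value for all genes was 0.34. For *Ezh1*, *Mtf2* and *Jarid2* the 95% interval of the difference stayed within 2-fold in both directions, while for the other members it reached beyond 2-fold in at least one of them.

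**Figure D1:**
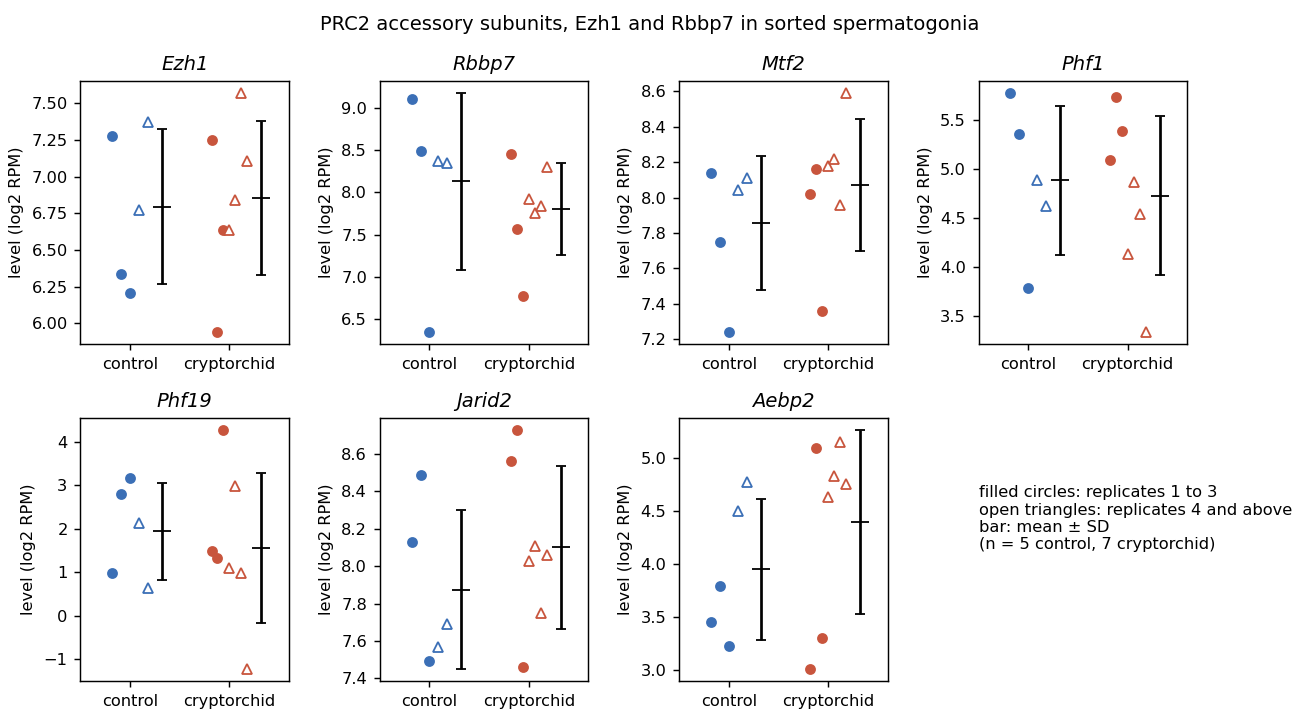
Level of each member in every library, in log2 RPM, with a separate axis for each gene. Filled circles are replicates 1 to 3, open triangles are replicates 4 and above, and the bar is the mean ± SD of 5 control or 7 cryptorchid libraries. The groups overlap for each of the 7 genes, and control replicate 3 lies at 6.34 for *Rbbp7*, below all other control libraries.

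*Ezh1*, the alternative methyltransferase gene (chromosome 11 of GRCm38, 101191115 to 101226463, minus strand), had 7.28, 6.34, 6.21, 6.77 and 7.37 log2 RPM in control replicates 1 to 5. In the 7 cryptorchid libraries it ran from 5.94 to 7.57 with a median of 6.84. The control range lay inside the cryptorchid range. The means were 6.80 ± 0.53 (SD, n=5) and 6.86 ± 0.53 (SD, n=7), which differ by 0.06 (standard error 0.30 in limma, adjusted *P*=0.964). In folds this is 1.04, with a 95% interval from 0.67 to 1.62. The counts behind it were 392 to 3792 reads per library.

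*Rbbp7* encodes a WD40 protein that binds histones H3 and H4 and also serves in other chromatin complexes. It lies on the X chromosome (162760402 to 162779092, plus strand). Its control libraries had 9.11, 8.49, 6.34, 8.37 and 8.35 log2 RPM, and its cryptorchid libraries ran from 6.77 to 8.46 with a median of 7.84. All but 1 of the cryptorchid libraries lay below the control median, but control replicate 3 lay below all of them. The means were 8.13 ± 1.05 (SD, n=5) and 7.80 ± 0.55 (SD, n=7), a difference of -0.33 (standard error 0.40, limma adjusted *P*=0.834; exact two-sided rank sum *P*=0.202).

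The *Rbbp7* difference depended on control replicate 3. Without it the log2 difference was -0.78 (limma unadjusted *P*=0.0201, adjusted over all genes 0.296; exact rank sum *P*=0.0242), and without control replicate 1 it was -0.09. Both libraries numbered 3 were low for this gene, at 6.34 in control and 6.77 in cryptorchid. Leaving out both gave -0.60 (unadjusted *P*=0.0186, adjusted 0.274), a choice made after the values were seen. Of the 100-base windows of the *Rbbp7* transcripts, 3.83% also occur in transcripts of the pseudogene *Gm6382* or of *Txlng*, whose exons overlap *Rbbp7* on the other strand. The counting strand is not stated, and reads from these windows cannot be told apart here.

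Among the Polycomb-like genes, *Mtf2* was the steadiest (chromosome 5, 108065674 to 108109004, plus strand). It had 8.14, 7.75, 7.24, 8.04 and 8.11 log2 RPM in control, and 7.36 to 8.59 with a median of 8.16 in cryptorchid. The means were 7.86 ± 0.38 (SD, n=5) and 8.07 ± 0.37 (SD, n=7), a difference of 0.21 (standard error 0.26, limma adjusted *P*=0.837). Its spread within groups (0.37) was smaller than that of most genes of like level, of which 14.4% had a smaller SD. The exons of *Mtf2* overlap those of *Tmed5* on the other strand, which makes 6.97% of its 100-base windows ambiguous.

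*Phf1* (chromosome 17, 26933052 to 26937908, plus strand) had 5.78, 5.36, 3.78, 4.89 and 4.62 log2 RPM in control, and 3.33 to 5.74 with a median of 4.87 in cryptorchid. The groups shared nearly the same range. The difference of the means was -0.16 (standard error 0.43, limma adjusted *P*=0.931), from 4.89 ± 0.76 (SD, n=5) to 4.73 ± 0.81 (SD, n=7). It was 0.44 among replicates 1 to 3 and -0.54 among replicates 4 and above, and whether these values differ from each other was not tested. Of its windows 5.01% are shared with transcripts of *Cuta*.

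*Phf19* (chromosome 2, 34893757 to 34914026, minus strand) was the least covered member, with 2 to 201 reads per library. Control libraries had 0.98, 2.80, 3.16, 2.13 and 0.63 log2 RPM, and cryptorchid libraries ran from -1.22 to 4.28 with a median of 1.33. The lowest value came from 2 reads in cryptorchid replicate 7, which is under the floor of 3 reads (-0.64 log2 RPM in that library), and the highest from 163 reads in cryptorchid replicate 3. The difference was -0.38 (standard error 0.84, limma adjusted *P*=0.915), and its 95% interval ran from 0.23-fold to 2.60-fold. A change of 2-fold in either direction was thus not detectable at this depth and spread.

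In the PRC2.2 group, *Jarid2* (chromosome 13, 44729474 to 44921643, plus strand), whose protein recruits PRC2 and can stimulate it, had 8.13, 8.49, 7.49, 7.57 and 7.69 log2 RPM in control. In cryptorchid it ran from 7.46 to 8.73 with a median of 8.06, and 6 of the 7 libraries lay above the control median. The means were 7.87 ± 0.42 (SD, n=5) and 8.10 ± 0.44 (SD, n=7), a difference of 0.22 (standard error 0.28, limma adjusted *P*=0.838). In folds this is 1.17, with a 95% interval from 0.78 to 1.75.

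*Aebp2*, a zinc finger gene (chromosome 6, 140622663 to 140678472, plus strand), had 3.45, 3.79, 3.23, 4.50 and 4.77 log2 RPM in control, and 3.01 to 5.15 with a median of 4.75 in cryptorchid. Its low values came from replicates 1 to 3 in both groups, apart from 5.09 in cryptorchid replicate 2. The difference was 0.45 (standard error 0.45, limma adjusted *P*=0.791), from 3.95 ± 0.66 (SD, n=5) to 4.40 ± 0.87 (SD, n=7). It was 0.31 among replicates 1 to 3 and 0.21 among replicates 4 and above, both smaller than in the pooled data. The mean of *Aebp2* was 3.65 ± 0.75 log2 RPM in the former set and 4.77 ± 0.22 in the latter (SD, n=6 each), which holds 4 of the 7 cryptorchid and 2 of the 5 control libraries.

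**Figure D2:**
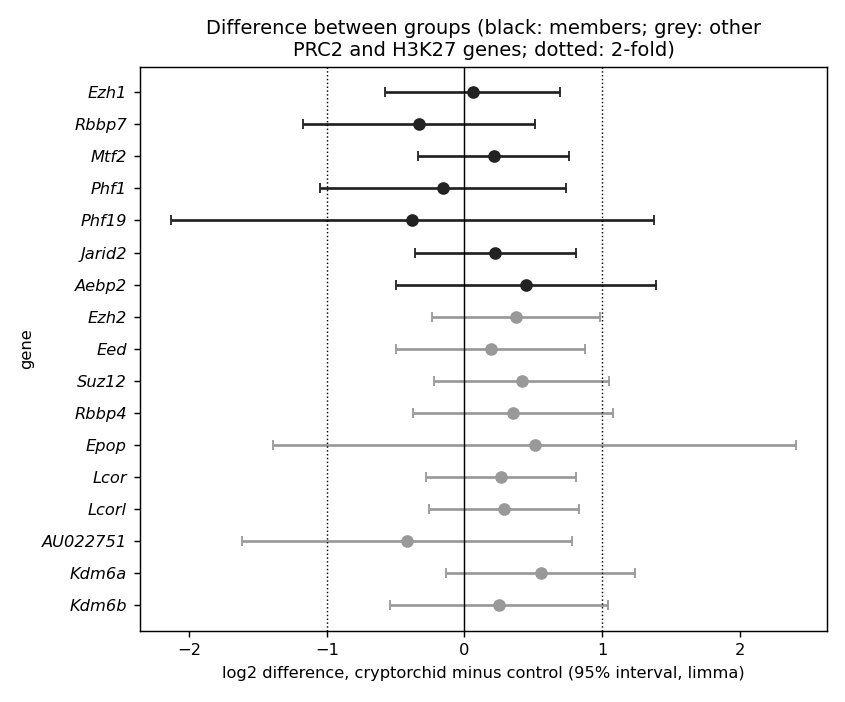
Log2 difference of mean log2 RPM, cryptorchid minus control, with its 95% interval from limma (x axis) for the 7 members (black) and 10 other PRC2 and H3K27 genes (grey). Dotted lines mark 2-fold. Each interval includes zero, and those of *Phf19* and *Epop*, the genes with the fewest reads, are the widest.

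The other genes of the pathway were read in the same fit. They are the 4 core genes, the further accessory genes *Epop*, *Lcor*, *Lcorl* and *AU022751* (*Ezhip*, an inhibitor of PRC2), and the H3K27 demethylases *Kdm6a* and *Kdm6b*. Of these 10 genes, 0 were called higher and 0 lower in limma, and 0 had an unadjusted *P*-value under 0.05 in limma, in voom or in the exact rank sum test. The mean was higher in cryptorchid for 9 of 10 and lower for *AU022751* (-0.42), with a median of 0.32, beside 0.10 for all genes and 56.7% of all genes with a higher mean. The tally was 9 of 10 with median centring and with quantile normalization too. It was 8 of 10 with the replicate number as a block, in replicates 1 to 3 alone and without control replicate 1, 3 or 5. Of the 10 genes, 7 had the same sign in both technical sets, the exceptions being *Eed*, *Kdm6b* and *AU022751*. Among them, *Lcor* and *Lcorl*, whose loci encode the PALI proteins of PRC2.1, differed by 0.26 and 0.29 (standard errors 0.26 and 0.26). *Epop*, also of PRC2.1, was covered by as little as 1 read and differed by 0.51 with a standard error of 0.90.

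Levels were then compared between genes per length, as log2 RPM per kb of merged exons of protein-coding transcripts (GENCODE vM21). *Rbbp7* was the highest member at 6.71 ± 0.77 (SD, n=12). *Mtf2* (5.96 ± 0.37), *Jarid2* (5.38 ± 0.43), *Ezh1* (4.23 ± 0.50), *Phf1* (3.39 ± 0.76), *Aebp2* (1.18 ± 0.79) and *Phf19* (-0.18 ± 1.45) followed, and the means kept this order with the length of the longest transcript. On the per-length scale, *Rbbp7* exceeded *Mtf2* and *Mtf2* exceeded *Jarid2* in 11 of 12 libraries each, by 0.75 ± 0.58 and 0.58 ± 0.42 (SD). *Phf1* exceeded *Aebp2* in 12 of 12 libraries (2.21 ± 1.21). *Jarid2* exceeded *Ezh1* by 1.16 ± 0.72 in 12 of 12 libraries, but by 0.66 ± 0.72 in 10 of 12 with the longest transcript, a mean below its SD.

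For some neighbours in the order the mean difference was smaller than its SD between libraries, and the order was not tested. *Ezh1* exceeded *Phf1* by 0.83 ± 0.97 in 10 of 12 libraries, although by 1.30 ± 0.97 in 11 of 12 with the longest transcript. *Aebp2* exceeded *Phf19* by 1.36 ± 1.95 in 9 of 12. *Ezh1* and its core counterpart *Ezh2* were level on this scale, with *Ezh2* higher by 0.05 ± 0.51 and in 7 of 12 libraries. With the longest transcript in place of merged exons, *Ezh1* came before *Ezh2*.

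**Figure D3:**
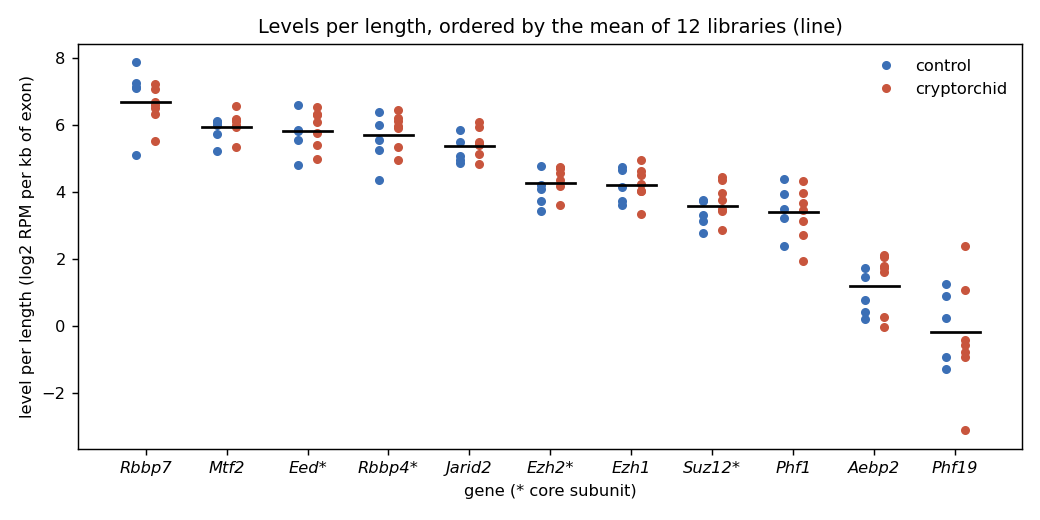
Level per length (log2 RPM per kb of merged exon) of the members and of the 4 core subunits (starred), in order of the mean of 12 libraries (black line), with control libraries in blue and cryptorchid libraries in red. *Rbbp7* and *Mtf2* stand at the top with means of 6.71 and 5.96, and *Aebp2* and *Phf19* at the bottom with 1.18 and -0.18.

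These levels give the make-up of the methyltransferase pair, of the Polycomb-like trio, and of the *Jarid2* and *Aebp2* sum. Of the summed per-length level of the Polycomb-like genes, *Mtf2* held 81.3% ± 5.21 in control (SD, n=5) and 83.4% ± 9.83 in cryptorchid (SD, n=7), *Phf1* 16.6% ± 5.50 and 14.6% ± 7.61, and *Phf19* 2.12% ± 1.99 and 2.02% ± 2.91. *Mtf2* was thus the main Polycomb-like transcript in both groups, and its lowest share in any library was 65.8%. *Jarid2* made up 94.7% ± 3.03 of the *Jarid2* and *Aebp2* sum in control and 93.8% ± 2.94 in cryptorchid. PRC2.2 holds both of these proteins, so this share does not describe a choice between subunits. *Ezh1* held 52.3% ± 8.38 of the methyltransferase sum in control and 47.0% ± 8.67 in cryptorchid, or 61.0% and 55.9% with the longest transcript. These are shares of RNA, and protein was not measured.

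To compare subunits that replace each other, log2 ratios of RPM were taken within each library, where scaling between libraries cancels out. Of the 4 ratios, that of *Rbbp7* to *Rbbp4* had an unadjusted *P*-value under 0.05. It was 0.58, 0.79, -0.14, 0.97 and 0.20 in control replicates 1 to 5, and -0.13, 0.07, -0.35, -0.45, -0.52, -0.29 and 0.22 in cryptorchid replicates 1 to 7. Each of the 7 cryptorchid libraries lay below the control median, while control replicates 3 and 5 lay within the cryptorchid range.

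The mean *Rbbp7* to *Rbbp4* log2 ratio was 0.48 ± 0.45 in control (SD, n=5) and -0.20 ± 0.27 in cryptorchid (SD, n=7), a difference of -0.68, or 0.62-fold (exact two-sided rank sum test over 792 splits, *P*=0.0303). It did not hold after Benjamini-Hochberg adjustment over the 4 ratios (exact *P*=0.121). The difference was -0.54 among replicates 1 to 3 and -0.84 among replicates 4 and above, and over the 300 splits that keep these sets apart the exact *P*-value was 0.113. The ratio joins a lower mean of *Rbbp7* (-0.33) to a higher mean of *Rbbp4* (0.35), neither of which passed the test alone. In share of the per-length sum, *Rbbp7* held 72.0% ± 6.36 in control and 61.9% ± 4.41 in cryptorchid.

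Some other measures bear on this ratio. Of the *Rbbp4* windows, 28.8% lie in transcripts of *Sync* or *Gm26722* on the other strand, and *Sync* itself had 0 to 87 reads per library, whereas *Rbbp4* had 915 to 9023. *Txlng*, which overlaps *Rbbp7* by 174 bases, had 30.1 to 56.0 RPM in control and 42.1 to 102 RPM in cryptorchid (limma log2 difference 0.90, adjusted *P*=0.253). The median sum of the spermatid markers was 1042 RPM in control and 236 RPM in cryptorchid. The part of these measures in the ratio was not tested.

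The *Ezh1* to *Ezh2* log2 ratio was 2.07, 0.75, 1.30, 1.06 and 1.10 in control and 0.26 to 1.53 with a median of 1.04 in cryptorchid. The means of 1.26 ± 0.50 (SD, n=5) and 0.94 ± 0.51 (SD, n=7) differed by -0.31, less than the SD of either group (exact two-sided rank sum *P*=0.530, adjusted over 4 ratios 1). *Jarid2* to *Mtf2*, which sets a PRC2.2 gene against a PRC2.1 gene, had 0.02 ± 0.50 in control and 0.03 ± 0.40 in cryptorchid (difference 0.01, exact *P*=1). Its mean by technical set was 0.36 in replicates 1 to 3 and -0.31 in replicates 4 and above (n=6 each), a difference that was not tested. *Phf19* to *Mtf2* had -5.92 ± 1.44 and -6.51 ± 2.04 (difference -0.59, exact *P*=0.876).

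**Figure D4:**
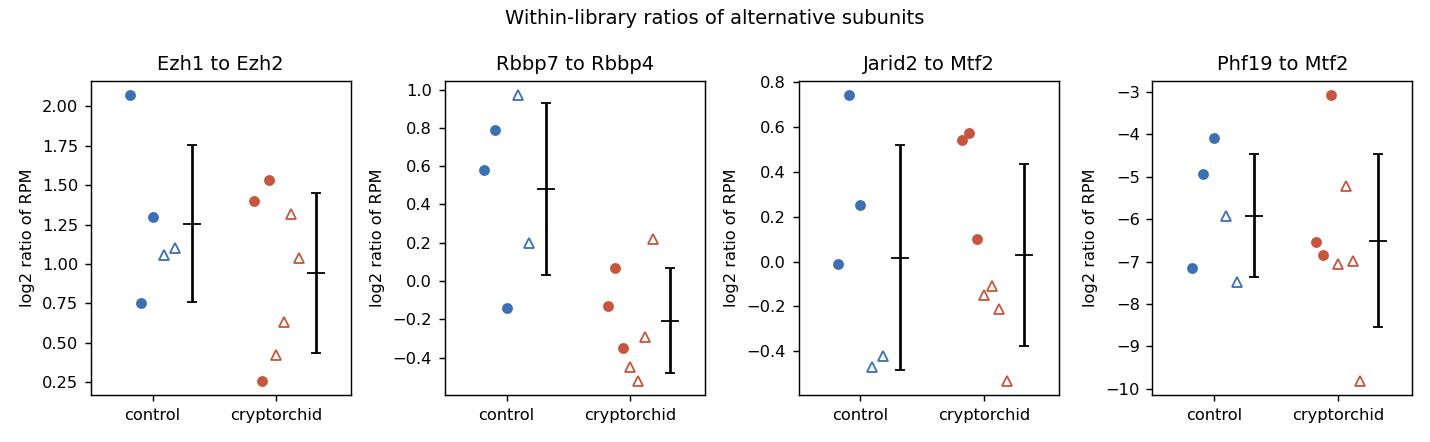
Within-library log2 ratios of RPM for 4 pairs of subunits, with a separate axis for each pair. Filled circles are replicates 1 to 3, open triangles replicates 4 and above, and bars the mean ± SD (5 control, 7 cryptorchid libraries). The *Rbbp7* to *Rbbp4* ratio has means of 0.48 and -0.20, with control replicate 3 at -0.14 among the cryptorchid values.

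Within groups, control replicate 3 stood low for most members. Control replicate 3 was the lowest control library for 6 of the 7 members, the exception being *Phf19*, for which it was the highest. This library was the lowest control library for 39.3% of all genes tested and for 44.3% of those with a log2 mean above 3. Cryptorchid replicate 3 was the lowest cryptorchid library for *Rbbp7*, *Mtf2* and *Jarid2* (31.3% of all genes, 32.7% of those with a log2 mean above 3). It was the highest for *Phf19* and lay above its group mean for *Phf1*. Both libraries numbered 3 had the lowest share of reads on genes in their groups (74.5% in control and 80.9% in cryptorchid). The part of this in the levels was not tested.

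After subtraction of the group means, *Mtf2* and *Rbbp7* had a Pearson r of 0.81 over the 12 libraries, and *Mtf2* and *Phf19* had -0.81. Without both libraries numbered 3 these were 0.25 and -0.69 over 10 libraries, so that the former rests on those libraries. For *Aebp2* and *Rbbp7* r went from 0.21 to -0.79. Libraries differ in depth and in technical set, and these values are given as a description.

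The gene most like each of 6 members in this measure, among the genes with a log2 mean above 3, was *Ints6l* for *Ezh1* (r of 0.97), *Arf4* for *Rbbp7* (0.98), *Tmem167* for *Mtf2* (0.97), *Prr5* for *Phf1* (0.93), *Polr2k* for *Jarid2* (0.96) and *Czib* for *Aebp2* (0.97). The next were *Prps1*, *Cct6a*, *Smc2*, *Lrp10*, *Igfbp6* and *Sdhaf4*, with r from 0.92 (*Sdhaf4*) to 0.97 (*Cct6a*). They are the highest of 11410 genes each, so that high values arise from the choice itself. No gene is on this list for more than 1 member, and no member is on the list of another.

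**Figure D5:**
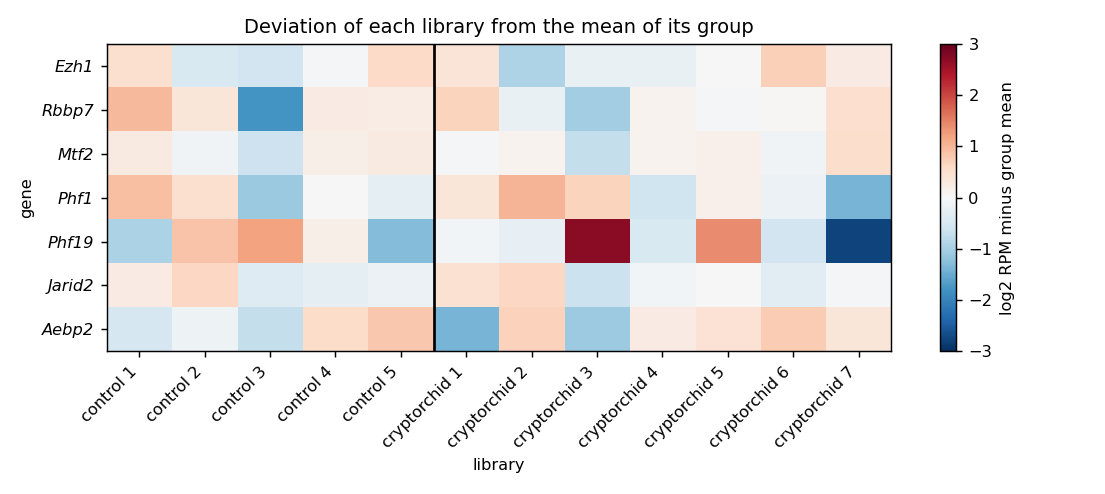
Log2 RPM of each member (rows) minus the mean of its group, in the 5 control and 7 cryptorchid libraries (columns, groups parted by the black line), with red above and blue below the group mean. Control replicate 3 is blue for each gene but *Phf19*, and *Phf19* has the strongest colours, from -2.79 in cryptorchid replicate 7 to 2.72 in cryptorchid replicate 3.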

How the data were processed

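Reads of 12 Smart-seq2 libraries (paired-end, 150 bp, no molecular identifiers) were trimmed with Trim Galore (0.6.6 in the submitters' processing notes), mapped to mm10 with HISAT2 2.1.0 and counted in SeqMonk 1.48.1 over protein-coding UCSC genes, and the authors deposited them as log2 RPM without pooling replicates. The counting strand is not given in the sources used here. The authors called genes with edgeR, which was not run here, and voom on recovered reads was the count-based alternative. The table had 0 columns of no sample.

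Libraries were mapped to groups and replicate numbers from the sample titles. Reads behind each value were recovered from the value steps, with a gene without reads at 0.9 reads, and 100% of the values under 1000 reads were whole within 0.01. Read numbers and the floor of 3 reads cover counting error only. Between pairs of replicates the variance was 12.9 to 254 times that of sampling noise (mean chi-square per gene, 31 pairs), so each library was 1 sample.

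limma 3.58.1 (lmFit, eBayes with trend) in R 4.3.3 was fitted on the 16932 genes whose mean RPM exceeded -1 on the log2 scale, unpaired, with Benjamini-Hochberg adjustment over all of them, and tested on simulated data. Single values were tested by the exact two-sided rank sum over 792 splits, whose smallest *P*-value is 0.00253 (0.00667 over the 300 splits within sets) (scipy 1.17.1, numpy 2.4.6 and pandas 2.3.3 under Python 3.11.15, with matplotlib 3.10.9 for the plots). Positions, lengths and shared windows of 100 bases came from GENCODE vM21 on GRCm38, the build of mm10, in which 17 of 17 genes matched.

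Replicates 1 to 3 and replicates 4 and above form a pair of technical sets, found in the values. In the former an even read number was held by 53.2% to 60.8% of the genes that had 1 to 20 reads, and 74.5% to 94.0% of reads were on genes, against 48.2% to 50.5% and 94.8% to 99.9% in the latter. The alternatives were other scalings, pseudocounts, filters, library weights, voom, the replicate number as a block, a term for the set, each set alone and each library left out. The longest-transcript lengths, the sets alone for the ratios and the omission of both libraries numbered 3 were added after the values were seen. Members, lists, ratios and tests were chosen with earlier results of these data known. Named genes are the members, the 10 other PRC2 and H3K27 genes and, for each member, the 2 genes with the highest r after subtraction of group means, which are not reported here for *Phf19*. Protein sequences were not used here.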

Additional observations from a re-analysis of the deposited data

Results flagged for a closer look

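Over 22 groups of values (7 members and 4 ratios in each group of libraries), 1 value stood apart from its group by Dixon's 95% limit, and chance alone gives about 1 in 20. It was *Rbbp7* in control replicate 3, at 6.34 log2 RPM against 8.35 to 9.11 in the other control libraries, where the gap to the next library was 0.724 of the whole range (limit 0.71). The same library had a *Rbbp4* level of 6.49 log2 RPM, also the lowest in control, so that its *Rbbp7* to *Rbbp4* log2 ratio of -0.14 did not stand apart by this limit.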

How the results depend on the processing

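No member was called at 2-fold and an unadjusted *P*-value of 0.05 under any of the 13 alternatives or with any of the 12 libraries left out. The log2 difference of *Ezh1* (0.06) reversed to -0.0067 with median centring, -0.0502 with array weights, -0.0152 with a term for the set, -0.0031 in replicates 1 to 3, -0.0288 in replicates 4 and above and -0.0490 without both libraries numbered 3, and ran from -0.0852 to 0.21 with single libraries left out. That of *Phf1* reversed to 0.44 in replicates 1 to 3 and ran from -0.43 to 0.0762 with single libraries left out, and that of *Phf19* reversed to 0.0468 and ran from -0.83 to 0.0864 (above zero without cryptorchid replicate 7). The cause was not tested.

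With the replicate number as a block, *Ezh1*, *Phf1* and *Phf19* reversed to -0.13, 0.16 and 0.29, and the unadjusted limma *P*-value fell under 0.05 for *Rbbp7* (-0.44, 0.0264, adjusted 0.160) and *Jarid2* (0.30, 0.0345, adjusted 0.185). Same-numbered libraries deviated together with r of 0.35, 0.36, 0.41 and 0.25 for numbers 1 to 4, but with 0.05 for number 5. Which libraries share a mouse was not stated, and because of number 5 the numbers were not taken as pairs. Whether they are pairs cannot be told from these values. Over all genes the block moved the calls from 603 higher and 399 lower to 778 and 900. Control replicates 1 to 4 correlated best with their own number and control replicate 5 with cryptorchid replicate 7 (0.27). For the ratios, paired by number, *Phf19* to *Mtf2* reversed to 0.16 (exact *P*=0.875), and *Rbbp7* to *Rbbp4* was -0.75 with the smallest *P*-value that 5 pairs can give (0.0625).

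The *Rbbp7* to *Rbbp4* difference (-0.68) was negative under each alternative. It missed 0.05 over splits within the sets (-0.69, exact *P*=0.113). Each set alone cannot reach 0.05, with -0.54 in replicates 1 to 3 (exact *P*=0.4, smallest possible 0.1 over 20 splits) and -0.84 in replicates 4 and above (exact *P*=0.267, smallest possible 0.133 over 15 splits). It ran from -0.84 to -0.56 with single libraries left out (exact *P*=0.0121 to 0.0727). It was above 0.05 without control replicate 1, 2 or 4 or cryptorchid replicate 3, 4, 5 or 6. With single libraries left out, *Jarid2* to *Mtf2* ran from -0.11 to 0.19, *Phf19* to *Mtf2* from -1.16 to -0.0395 and *Ezh1* to *Ezh2* from -0.44 to -0.11, and the differences of *Mtf2*, *Jarid2*, *Aebp2* and *Rbbp7* from 0.0580 to 0.33, 0.12 to 0.38, 0.27 to 0.68 and -0.78 to -0.0856.

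Over all genes, calls (603 higher and 399 lower, with 1606 genes at an unadjusted *P*-value under 0.05 and 1 higher and 1 lower after adjustment) moved by over 1.5 times with array weights (882 and 703, with 3391, and 252 and 224 adjusted), with the block (3759 genes unadjusted, 382 and 567 adjusted), with a term for the set (580 and 635, and 15 and 31 adjusted), in replicates 1 to 3 (287 and 345, with 633, and 0 adjusted) and in replicates 4 and above (635 and 705, with 2934, and 0 adjusted). The cause was not tested.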
